A study of Mus musculus with 8 samples.

Results

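The genes described here are 10 genes of antioxidant defence, Sod1, Sod2, Cat, Gpx1, Gpx4, Prdx3, Prdx5, Txn2, Nqo1 and Hmox1, out of 141239 features counted in each library. They were chosen by name, with earlier results of these data known. All 10 symbols were found among the Ensembl identifiers of the count tables through the GENCODE M21 annotation. RNA was sequenced from hearts of mice aged 2 weeks, of a strain given as mixed. Of 8 libraries, 5 came from Lmna-/- hearts in which wild-type LMNA was put back with an adeno-associated virus of serotype 9 (labelled Lmna-/-:AAV9 Lmna WT, replicates 1 to 5, AAV9-LMNA below). The other 3 came from Lmna-/- hearts whose labels name no vector (replicates 6 to 8, untreated below). All 8 libraries thus carry the Lmna knockout, and no wild-type hearts and no hearts given an empty vector were analysed here, so that an effect of LMNA and one of the vector cannot be told apart. The sources used here do not give the promoter or dose of the vector, nor the sex and litter of the mice. As no label says that each library came from a separate mouse, p-values refer to the spread among libraries alone, and part of that may be technical.

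Antioxidant enzymes work in relays. Superoxide that leaks from the respiratory chain is turned into hydrogen peroxide by superoxide dismutases, SOD1 in the cytosol and SOD2 in the mitochondrial matrix, and the peroxide is then removed by catalase, glutathione peroxidases and peroxiredoxins. Peroxiredoxin 3 is recharged in mitochondria by thioredoxin 2, while NQO1 and heme oxygenase 1 (HMOX1) belong to the enzymes that the transcription factor NRF2 induces under oxidative stress. Heart muscle, with its dense mitochondria, relies on the mitochondrial branch of this defence.

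Both glutathione peroxidases on the list, GPX1 and GPX4, carry selenocysteine in their active site, which is encoded by a TGA codon that elsewhere means stop. Their coding sequence around that codon is shown because it marks the pair as dependent on selenium, which no other gene of the 10 is in this annotation. The windows hold 51 bases each of GENCODE M21 transcripts, 5′ to 3′, with the annotated selenocysteine codon in capitals. In Gpx1 it is codon 47 of 201 (GRCm38, plus strand, chr9:108339451-108339453), and in Gpx4 codon 73 of 197 (plus strand, chr10:80054737-80054739).
Gpx1-201: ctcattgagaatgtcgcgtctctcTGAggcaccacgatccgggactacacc
Gpx4-202: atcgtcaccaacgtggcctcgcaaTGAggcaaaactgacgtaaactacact

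Promoters are shown for Sod2, which lay furthest above the median of coding genes of its annotated length, and for Prdx5, which had the smallest p of the 10. They run from 250 bases before to 50 after the start site and are RefSeq sequences on GRCm38.p6, printed 5′ to 3′ on the strand of the gene. Capitals mark the GC box GGGCGG.
Sod2 (chr17:13007589-13007888, plus strand): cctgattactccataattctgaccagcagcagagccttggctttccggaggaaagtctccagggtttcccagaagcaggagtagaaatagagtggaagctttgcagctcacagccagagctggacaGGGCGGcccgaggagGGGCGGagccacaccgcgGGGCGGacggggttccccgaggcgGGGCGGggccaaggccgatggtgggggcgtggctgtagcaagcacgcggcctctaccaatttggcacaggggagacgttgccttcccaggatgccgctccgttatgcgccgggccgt
Prdx5 (chr19:6910057-6910356, minus strand): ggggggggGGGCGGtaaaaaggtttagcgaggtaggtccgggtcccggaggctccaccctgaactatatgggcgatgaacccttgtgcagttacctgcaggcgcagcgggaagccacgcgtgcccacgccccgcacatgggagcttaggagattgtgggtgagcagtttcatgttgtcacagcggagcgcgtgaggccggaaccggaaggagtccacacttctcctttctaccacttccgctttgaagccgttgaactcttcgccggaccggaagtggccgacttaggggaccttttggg

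The RefSeq table held promoters for 9 of the 10 genes. On both strands, GGGCGG was found in promoters of all 9, and in 35.7% of the 32851 mouse promoters of the same 300 bases. The core of the antioxidant response element that NRF2 binds, TGACNNNGC, was found in 1 of the 9, Sod1, 56 bases before the start site, and in 12.4% of all promoters. The AP-1 element TGANTCA was in 0 of the 9, against 7.81% of all promoters. These matches describe the letters of the windows only.

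AAV9-LMNA libraries held 21576949 to 26492443 counts on features and untreated libraries 21439956 to 24021970. Reads outside every feature made up 12.1 to 12.8% in AAV9-LMNA libraries and 16.8 to 24.7% in untreated libraries, the most in untreated replicate 6. Levels are given as CPM, counts per 1000000 after TMM scaling of the libraries. Lmna, the targeted gene, held 227 to 747 CPM in AAV9-LMNA libraries and 32.3 to 68.7 CPM in untreated libraries. Cardiomyocyte markers such as Myh6 and Tnnt2 were abundant in all 8 libraries. Of 7, edgeR called 1, Mb, higher in AAV9-LMNA libraries (log2 fold change 0.53, edgeR adjusted p = 0.00446), where 18.4% of coding genes were. Ryr2 had -0.40 and was not called, and the median of the 7 was 0.062. Markers of atrial muscle summed to 59.1 to 177 CPM in AAV9-LMNA libraries. In untreated replicates 6, 7 and 8 they summed to 80.9, 63.1 and 978 CPM. Of 4 tested, edgeR called 3 lower, Myl7, Myl4 and Bmp10, with every AAV9-LMNA library below all untreated libraries. Replicate 8 set the size of these folds, as Myl7 held 4.51, 1.71 and 308 CPM in untreated replicates 6 to 8. The other, Nppa, had a log2 fold change of 0.15 with overlapping groups and was not called. Limma-voom called 0 of the 4, and DESeq2 tested 1 and called 0. Macrophage markers summed to 528 to 599 CPM in AAV9-LMNA libraries, and to 172, 646 and 290 CPM in untreated replicates 6, 7 and 8, and none of the 8 markers was at 0 in all libraries. In bulk hearts, fewer cells of a type and less RNA per cell cannot be told apart.

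The mitochondrial antioxidant genes Sod2, Prdx3, Prdx5 and Txn2 and the peroxidase gene Gpx4 were higher in AAV9-LMNA hearts, by 1.27- to 1.74-fold. Cat, Gpx1, Nqo1 and Hmox1 did not pass, and Sod1 was listed at 0 in every library. Called means an adjusted p under 0.05 in edgeR's quasi-likelihood test over the 26717 features that passed a filter on low counts. Of the 10 genes 9 passed that filter, 5 were called higher and 0 lower, where 10.6% of all features and 18.4% of the 13785 coding genes tested were called higher and 15% of all features lower. The median log2 fold change, AAV9-LMNA over untreated, was 0.45 for the 9 and -0.03 over all features, NONCODE ones included. Coding genes in the 2 shortest length classes described below had medians of 0.39 and 0.32, and those in the longest -0.05. The same 5 were the ones in which every AAV9-LMNA library lay above every untreated library, as 13.8% of all features did.

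**Figure D1:**
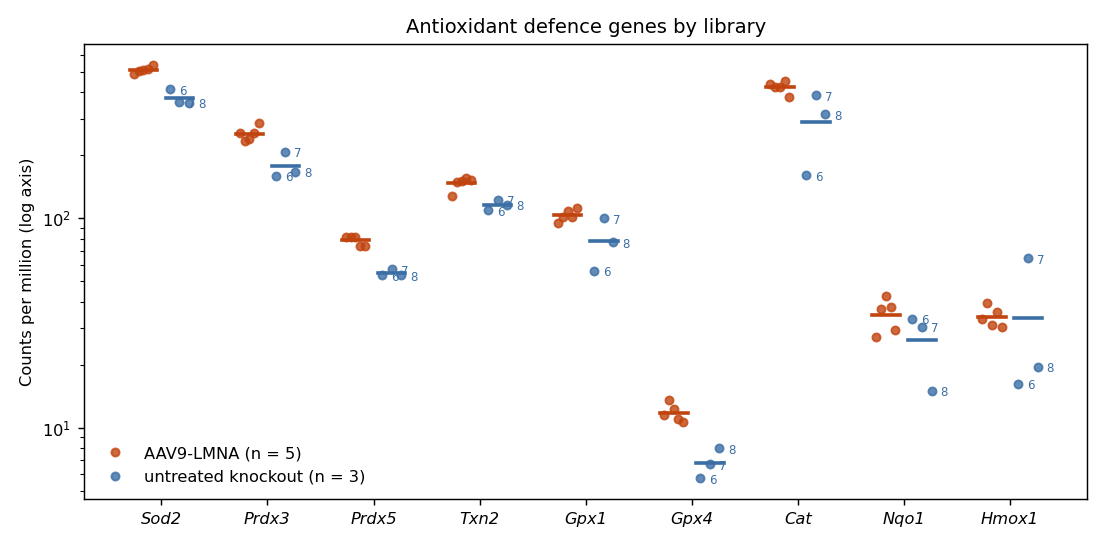
CPM on a log axis for the 9 genes with counts, each dot 1 library and each bar the group mean, AAV9-LMNA libraries (n = 5) left of untreated knockout libraries (n = 3, numbered by replicate). The groups are apart for Sod2, Prdx3, Prdx5, Txn2 and Gpx4, and they overlap for Gpx1, Cat, Nqo1 and Hmox1, where untreated replicate 7 holds 64.35 CPM of Hmox1.

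These calls depended on how the libraries were scaled and on whether transcript length was corrected for. With Ensembl features scaled and tested alone, which moved the same features by a median of -0.19 on the log2 scale, Gpx4 and Prdx5 stayed called, 2 of the 9 against 4.33% of all features called higher. After length and GC content of transcripts had been corrected for in each library, which moved them by -0.24, 0 of the 9 were called, against 2.26% of all features (edgeR), and 0 with the length of coding transcripts in that correction, against 2.19%. At an unadjusted p under 0.05, 2 of the 9 passed in the corrected edgeR fit, Sod2 and Gpx4. On all features together, DESeq2 and limma-voom called the same 5 higher and 0 lower, against 14.6% and 11.4% of all features called higher. At an unadjusted p under 0.05 each of edgeR, DESeq2 and limma-voom had 7 higher and 0 lower, against 18%, 20% and 19.6% of all features higher. Without untreated replicate 7, 8 of the 9 were called higher, against 17% of all features. Against untreated replicate 7 alone 3 were called higher and 1, Hmox1, lower, against 3.81% and 3.36% of all features. In that fit 1 untreated library stands for its group and the spread comes from the AAV9-LMNA libraries, so its calls are no check on the others.

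**Figure D2:**
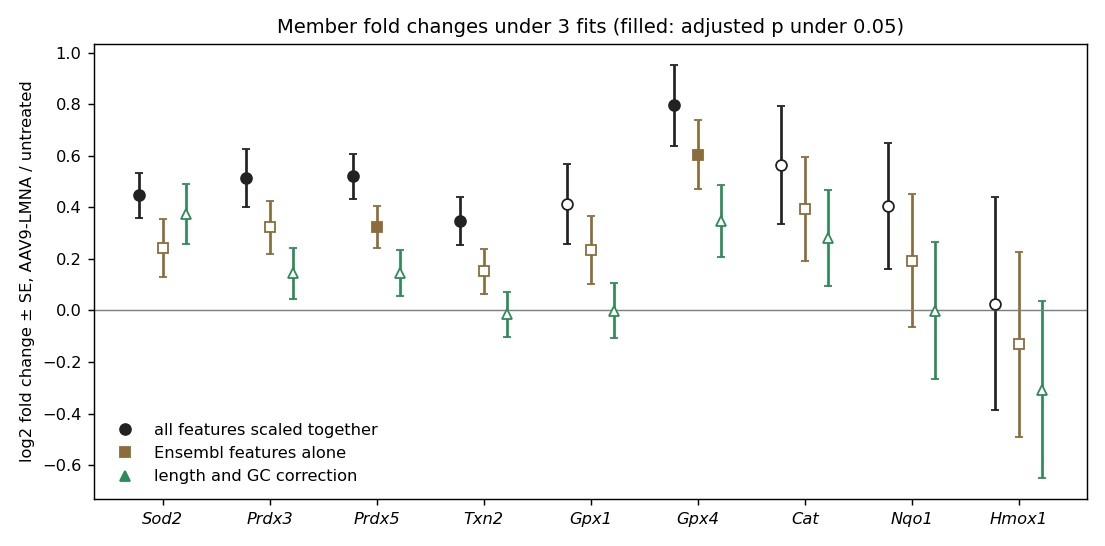
Log2 fold change of AAV9-LMNA over untreated knockout with its standard error for 9 genes under 3 fits, filled where the adjusted p was under 0.05. The log2 fold change of Gpx4 runs through 0.80, 0.60 and 0.35 and that of Txn2 through 0.35, 0.15 and -0.015 as the fit goes from all features together to Ensembl features alone to the length and GC correction.

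Superoxide dismutases were represented by Sod2 alone. Sod2 (ENSMUSG00000006818, GRCm38 chromosome 17, 13006846 to 13040063, plus strand), the manganese enzyme of the mitochondrial matrix, held 491, 503.5, 511, 518 and 542 CPM in AAV9-LMNA replicates 1 to 5 and 413, 359 and 357 CPM in untreated replicates 6 to 8. The groups did not overlap, and the AAV9-LMNA libraries lay close together. The means were 513 ± 19.1 CPM in AAV9-LMNA hearts (SD, n = 5) and 377 ± 31.9 CPM in untreated hearts (SD, n = 3), a log2 fold change of 0.45 (standard error 0.088, edgeR adjusted p = 0.00704). After the length and GC correction it was 0.37 (edgeR adjusted p = 0.0799) and with Ensembl features alone 0.24 (edgeR adjusted p = 0.174), so the call was lost in each.

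Sod1 (ENSMUSG00000022982, chromosome 16, 90220754 to 90226329, plus strand), the copper and zinc enzyme of the cytosol, was listed with 0 counts in all 8 libraries. A count of 0 allows up to 3 counts, which is 0.114 to 0.142 CPM in AAV9-LMNA libraries and 0.123 to 0.136 CPM in untreated libraries. That limit covers reads assigned to the gene, and counting error only. Of the 21942 coding genes in the tables, 3899 (17.8%) were listed at 0 in every library. Reads that overlapped more than 1 feature, which the counting left unassigned, made up 24.03 to 26.4% in AAV9-LMNA libraries and 21.03 to 24.9% in untreated libraries, as a share of uniquely placed reads. A further 33966499 to 39691268 alignments in AAV9-LMNA libraries and 31188497 to 40285518 in untreated libraries were set aside as not unique. The part of either in the Sod1 zero was not tested. No other gene in GENCODE M21 overlaps the exons of Sod1, and coordinates of the NONCODE features counted beside it were not used here. Its level and any difference between the groups were not measured by these counts.

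The 3 genes of the mitochondrial peroxiredoxin relay, Prdx3, Prdx5 and Txn2, were each called higher with all features together. Prdx3 (ENSMUSG00000024997, chromosome 19, 60864051 to 60874556, minus strand), the main peroxiredoxin of the matrix, held 255, 234, 239, 255 and 286 CPM in AAV9-LMNA replicates 1 to 5 and 159, 207 and 167 CPM in untreated replicates 6 to 8. Every AAV9-LMNA library was above the highest untreated library, replicate 7. Its log2 fold change was 0.51 (standard error 0.11, edgeR adjusted p = 0.0100). Against untreated replicate 7 alone, the untreated library nearest to the AAV9-LMNA group, it was 0.30.

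Prdx5 (ENSMUSG00000024953, chromosome 19, 6906697 to 6910106, minus strand), an atypical peroxiredoxin of mitochondria, peroxisomes and cytosol, had the untreated libraries closest together of the 9, relative to their mean. It held 82.0, 81.5, 81.7, 74.0 and 73.5 CPM in AAV9-LMNA replicates 1 to 5 and 53.5, 57.2 and 53.6 CPM in untreated replicates 6 to 8. The log2 fold change of 0.52 (standard error 0.087) had the smallest p of the 10 genes (edgeR adjusted p = 0.00404). Prdx5 was also called with Ensembl features alone (0.32, edgeR adjusted p = 0.0312), and not after the length and GC correction (0.15, edgeR adjusted p = 0.333). Of its exonic length 19.1% overlaps Trmt112 on the other strand, and since reads were counted without strand its count is uncertain there.

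Txn2 (ENSMUSG00000005354, chromosome 15, 77915047 to 77929006, minus strand), the thioredoxin that reduces peroxiredoxin 3, showed the smallest called difference. It held 128, 149, 152, 156 and 153 CPM in AAV9-LMNA replicates 1 to 5 and 109, 123 and 116 CPM in untreated replicates 6 to 8. AAV9-LMNA replicate 1 was nearest to the untreated libraries, and the groups did not overlap. The log2 fold change was 0.35 (standard error 0.094, edgeR adjusted p = 0.0231). The call was lost without AAV9-LMNA replicate 2, 3, 4 or 5 (edgeR adjusted p = 0.0553, 0.0583, 0.0563 and 0.0517). Corrected for length and GC, its log2 fold change was -0.015 (edgeR adjusted p = 0.935).

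Of the selenium peroxidases Gpx4 was called and Gpx1 was not. Gpx4 (ENSMUSG00000075706, chromosome 10, 80047166 to 80056439, plus strand), which reduces lipid peroxides in membranes and holds back ferroptosis, had the largest fold of the 9 with all features and libraries together. Sod2 was above it after the length and GC correction, and Hmox1 and Cat were without untreated replicate 7. It held 11.5, 13.6, 12.3, 10.99 and 10.7 CPM in AAV9-LMNA replicates 1 to 5 and 5.74, 6.695 and 7.99 CPM in untreated replicates 6 to 8. All AAV9-LMNA libraries lay above all untreated libraries. Its means of 11.8 ± 1.15 CPM in AAV9-LMNA hearts (SD, n = 5) and 6.81 ± 1.13 CPM in untreated hearts (SD, n = 3) gave a log2 fold change of 0.80 (standard error 0.16, edgeR adjusted p = 0.00689), or 1.74-fold. It was called with Ensembl features alone (0.60, edgeR adjusted p = 0.0188) and without any 1 library, and not after the length and GC correction (0.35, edgeR adjusted p = 0.157).

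Gpx1 (ENSMUSG00000063856, chromosome 9, 108338903 to 108340343, plus strand), the abundant peroxidase of cytosol and mitochondria, held 95.4, 102, 109, 101 and 112 CPM in AAV9-LMNA replicates 1 to 5 and 56.4, 100 and 76.9 CPM in untreated replicates 6 to 8. Untreated replicate 7 lay within the AAV9-LMNA range and replicate 6 lowest. The log2 fold change of 0.41 (standard error 0.155) did not pass (edgeR adjusted p = 0.0688). Without untreated replicate 7 it was 0.65 and called (edgeR adjusted p = 0.00357), and without replicate 6 it was 0.24 (edgeR adjusted p = 0.167). The length and GC correction left -0.0023 (edgeR adjusted p = 0.993). The difference between the fold changes of Gpx4 and Gpx1 was not tested.

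Cat (ENSMUSG00000027187, chromosome 2, 103453849 to 103485160, minus strand), the peroxisomal catalase, had the same order of untreated libraries. It held 436, 424, 425.5, 455 and 379.5 CPM in AAV9-LMNA replicates 1 to 5 and 161, 387 and 314 CPM in untreated replicates 6 to 8. Replicate 7 again overlapped the AAV9-LMNA range, at its low end. The log2 fold change of 0.56 had a standard error of 0.23 and did not pass (edgeR adjusted p = 0.0932), and 1 untreated library decided its size. Without replicate 7 it was 0.85 and called (edgeR adjusted p = 0.0171), and without replicate 6 it was 0.29 (edgeR adjusted p = 0.0868). Untreated replicate 6, lowest for Cat and Gpx1, also had the most reads outside features and the lowest sums of macrophage and of fibroblast markers (1423 CPM for fibroblast markers, against 3849 to 5990 in AAV9-LMNA libraries). Their part in these values was not tested.

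Hmox1 (ENSMUSG00000005413, chromosome 8, 75093621 to 75100589, plus strand), which breaks down heme, differed more among untreated hearts than between the groups. It held 33.2, 39.3, 31.0, 35.9 and 30.3 CPM in AAV9-LMNA replicates 1 to 5 and 16.2, 64.35 and 19.5 CPM in untreated replicates 6 to 8. The AAV9-LMNA libraries thus lay between untreated replicate 7 and the other 2 untreated libraries. The means were 33.9 ± 3.72 CPM in AAV9-LMNA hearts (SD, n = 5) and 33.4 ± 26.9 CPM in untreated hearts (SD, n = 3), with a log2 fold change of 0.025 (standard error 0.41, edgeR adjusted p = 0.968), which was -0.13 with Ensembl features alone and -0.31 after the length and GC correction, not called in either. Without untreated replicate 7 it was 0.94 and called higher (edgeR adjusted p = 0.00101). Against untreated replicate 7 alone, the library that stood apart, it was -0.91, which restates the value of 1 library.

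Nqo1 (ENSMUSG00000003849, chromosome 8, 107388225 to 107403206, minus strand), a quinone reductase and a standard readout of NRF2, had another order of untreated libraries than Hmox1. It held 27.05, 36.8, 42.45, 37.6 and 29.3 CPM in AAV9-LMNA replicates 1 to 5 and 33.1, 30.45 and 15.03 CPM in untreated replicates 6 to 8. Untreated replicate 8 was lowest and the other untreated libraries lay inside the AAV9-LMNA range. The log2 fold change was 0.40 (standard error 0.245, edgeR adjusted p = 0.236), and -0.00095 once length and GC were corrected for. Without the filter on low counts, Nqo1 (0.44, edgeR adjusted p = 0.0187) and Gpx1 (0.45, edgeR adjusted p = 0.00209) were called.

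Some other genes linked to NRF2 were highest of all 8 libraries in untreated replicate 7, and they were picked after their values were seen. Of the 92 tested genes of the wider lists 15 (16.3%) were highest in that library, and of all features 11%. More of the 92 were highest in AAV9-LMNA replicate 1 (21, or 22.8%, against 11.1% of all features) and replicate 5 (18, or 19.6%, against 10.3%). NRF2 targets such as Gclc, Me1, Gsr, Prdx1 and G6pdx were higher in another library. Srxn1, the sulfiredoxin that restores overoxidized peroxiredoxins, held 18.8 to 30.05 CPM in AAV9-LMNA libraries and 17.35, 43.7 and 12.1 CPM in untreated replicates 6 to 8. Nfe2l2, the gene of NRF2 itself, held 90.2 to 114 CPM in AAV9-LMNA libraries and 82.7, 140 and 58.7 CPM in untreated replicates 6 to 8. Gclm, the modifier subunit of the enzyme that starts glutathione synthesis, held 22.9 to 28.9 CPM in AAV9-LMNA libraries and 20.3, 35.7 and 21.15 CPM in untreated replicates 6 to 8. Txnrd1, the cytosolic thioredoxin reductase, held 65.3 to 78.3 CPM in AAV9-LMNA libraries and 74.5, 94.0 and 54.6 CPM in untreated replicates 6 to 8. Between the groups none of these 4 genes was called. Beside them, macrophage markers are of interest because macrophages that clear red cells carry much HMOX1. Their sum was highest in untreated replicate 7 and lowest in replicates 6 and 8. Taken singly, Csf1r, C1qa and C1qb were highest in replicate 7, where C1qb held 89.6 CPM, against 51.2 to 55.7 CPM in AAV9-LMNA libraries. Adgre1, Cd68, Mrc1, Cd163 and Lyz2 lay inside the AAV9-LMNA range in that library. Of the 8 markers 0 were called by edgeR (median log2 fold change 0.615), 1 at an unadjusted p under 0.05, while DESeq2 called 2 and limma-voom 3 higher. Their part in the Hmox1 values was not tested.

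**Figure D3:**
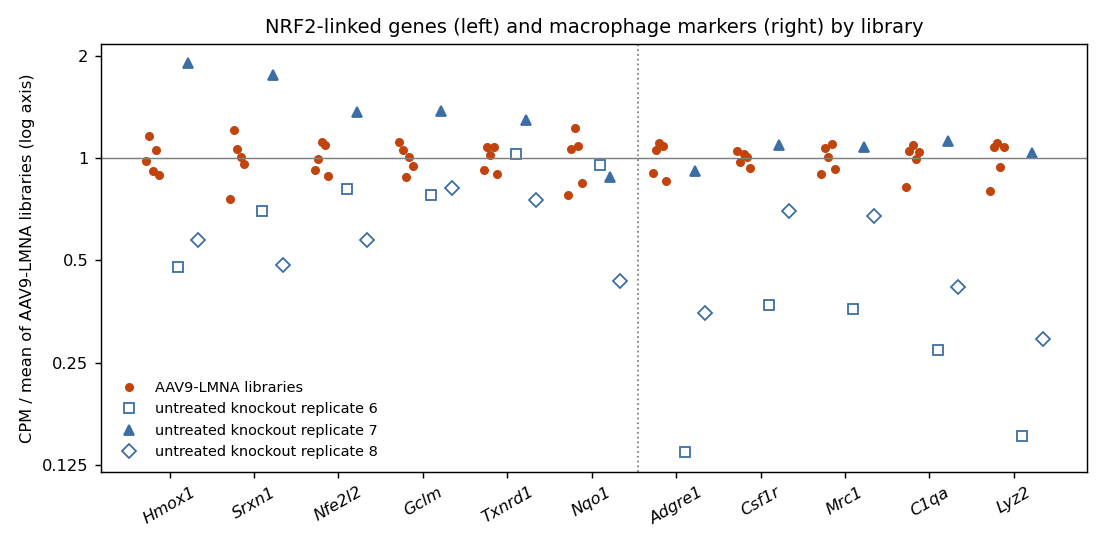
CPM divided by the mean of the AAV9-LMNA libraries, on a log axis, for NRF2-linked genes and 5 of 8 macrophage markers. AAV9-LMNA libraries are circles, and untreated knockout replicates 6, 7 and 8 are squares, triangles and diamonds. The markers Cd68, Cd163 and C1qb are not drawn. Their log2 fold changes were 0.94, -0.20 and 0.285, none called by edgeR. Replicate 7 lies above the AAV9-LMNA libraries for Hmox1 (64.35 CPM), Srxn1, Nfe2l2, Gclm and Txnrd1, and inside their range for Nqo1 (30.45 CPM).

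Per length, Prdx3 and Cat had the highest means in both groups, and Cat overlapped Gpx1 in untreated hearts. Levels were set per kilobase of the longest coding transcript, which a shorter isoform in use would understate. Reads left unassigned because they overlapped more than 1 feature are missing from these levels, and their part in the order of the genes was not tested. Prdx3 averaged 172 ± 13.7 CPM per kilobase in AAV9-LMNA hearts (SD, n = 5) and 120 ± 17.4 in untreated hearts (SD, n = 3), and Cat 162 ± 10.7 in AAV9-LMNA hearts and 110 ± 44.2 in untreated hearts. Their ranges overlapped in each group. In AAV9-LMNA hearts Gpx1 (96.8 ± 6.15) and Sod2 (87.6 ± 3.26) came next and overlapped each other, then Txn2 (72.0 ± 5.45) and Prdx5 (62.2 ± 3.47), which overlapped too. Nqo1 (22.3 ± 4.08) and Hmox1 (21.6 ± 2.37) overlapped, and Gpx4 was lowest of the 9, at 11.9 ± 1.16 CPM per kilobase in AAV9-LMNA hearts and 6.84 ± 1.13 in untreated hearts. In untreated hearts the order of the means was the same down to Prdx5, with Hmox1 above Nqo1, whose ranges overlapped there too.

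Most of the 9 genes are short, and short genes were higher in AAV9-LMNA libraries as a class. Coding genes tested were split by their longest transcript into 5 classes of 2757 genes. The median log2 fold change was 0.39 in the shortest class, of which 29.9% were called higher, 0.32 in the next (24.3%), and -0.05 in the longest class (5.04%). Gpx1 (0.41), Nqo1 (0.40) and, in the next class, Txn2 (0.35) lay within 0.03 of the median of their class. Prdx3 and Prdx5 lay 0.12 and 0.13 above it, Cat 0.25 and Gpx4 0.41, and Hmox1 had 0.36 less than its class median on the log2 scale. Sod2 was the exception in length, with a longest transcript of 5861 bases, and lay 0.49 above the median of the longest class, higher than 92.3% of its genes. Which transcript of a gene was in use was not measured, and a shorter one could place the gene in another class.

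**Figure D4:**
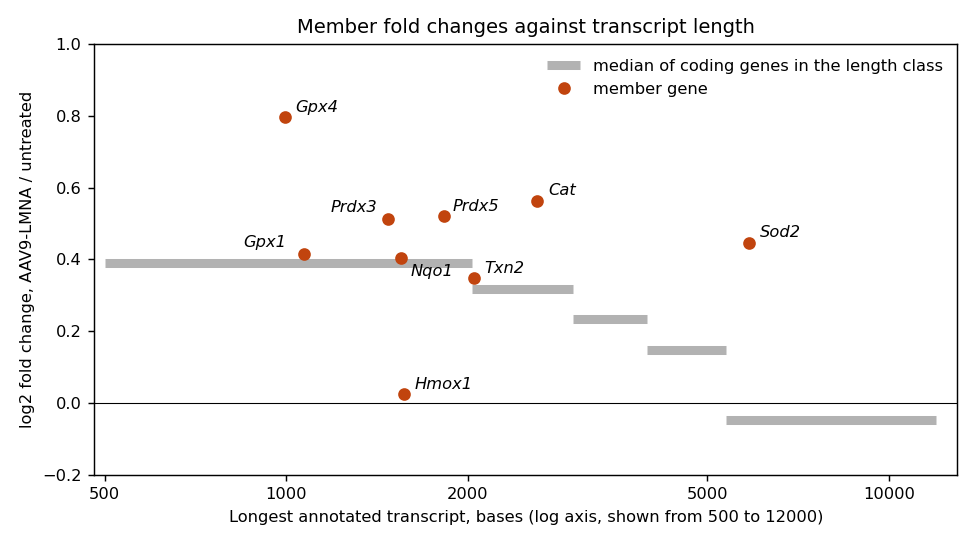
Log2 fold change of AAV9-LMNA over untreated knockout against the longest annotated transcript in bases (log axis), with dots for 9 antioxidant genes and grey bars for the median of coding genes in each of 5 length classes. Gpx1, Nqo1 and Txn2 sit at the median of their class, Gpx4 and Sod2 lie 0.41 and 0.49 above it, and Hmox1 lies under it.

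A wider set of 93 antioxidant and redox genes in 10 lists held more genes called higher than lower, with fewer called higher under both other fits. Of 92 tested, 23 were called higher and 1 lower, where 10.6% of all features, 18.4% of coding genes and 29.9% and 24.3% of coding genes in the 2 shortest length classes were called higher. That count is near the share for short genes, and no count of a single list below was tested against it. The median log2 fold change was 0.28, against -0.03 over all features, NONCODE ones included. It was 0.39 and 0.32 in the 2 shortest length classes of coding genes and -0.05 in the longest. With Ensembl features alone 8 were higher and 2 lower (median 0.08), against 4.33% of features higher, and after the length and GC correction 2 were higher and 2 lower (median -0.003), against 2.26%. Single libraries moved the count called higher as well. It was 37 without untreated replicate 7, against 17% of all features called higher. Without AAV9-LMNA replicate 2, 3 or 5 it was 14 each time, against 6.08%, 5.77% and 7.09% of all features. Compared with untreated replicate 7 only, wider genes had a median of 0.21 on the log2 scale, and all features -0.009.

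Among relatives of the superoxide dismutases and peroxidases, 5 of 8 rose and 0 fell in edgeR, where 18.4% of coding genes rose. The counts were 5 and 0 also at an unadjusted p under 0.05, and by DESeq2 and limma-voom. Prdx6, a peroxiredoxin that repairs oxidized phospholipids, held 165 ± 7.70 CPM in AAV9-LMNA hearts (SD, n = 5) and 113 ± 19.9 CPM in untreated hearts (SD, n = 3), a log2 fold change of 0.55 (edgeR adjusted p = 0.0082). Prdx2, a cytosolic peroxiredoxin abundant in red cells, rose by 0.43 on the log2 scale. Red cell markers summed to 397 to 1180 CPM in AAV9-LMNA libraries and 448 to 964 CPM in untreated libraries, and their part in the Prdx2 value was not tested. With Ensembl features alone Prdx6 was the 1 of 8 called, and after the length and GC correction 0 were called, with 2 higher and 1 lower at an unadjusted p under 0.05 (edgeR). In the thioredoxin system 2 of 10 rose, near the 18.4% of coding genes, and DESeq2 and limma-voom called 5 each. Those called by edgeR were the reductase genes Txnrd3 (0.46) and the mitochondrial Txnrd2 (0.41), and neither was called in either of the other fits.

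Glutathione genes went both ways. Of 10 tested for synthesis and reduction 3 rose and 1 fell, where 18.4% of coding genes rose and 6.07% fell. Neither count was tested against those shares. Gclc, the catalytic subunit of the enzyme that starts glutathione synthesis, held 20.5, 23.3, 24, 20.6 and 19.9 CPM in AAV9-LMNA replicates 1 to 5 and 33.2, 29.85 and 25.8 CPM in untreated replicates 6 to 8. Every AAV9-LMNA library lay below all untreated libraries, with a log2 fold change of -0.45 (edgeR adjusted p = 0.019), -0.66 with Ensembl features alone and -0.71 after the length and GC correction, called in each (edgeR adjusted p = 0.00946 and 0.012). Gclc was not called without untreated replicate 6 (edgeR adjusted p = 0.0609). Ggct, which breaks down gamma-glutamyl dipeptides, rose by 0.78, and the mitochondrial glutaredoxin gene Glrx5 by 0.44. Of 11 glutathione transferase genes 2 rose, near the 18.4% of coding genes, Gsto1 by 0.50 and Gstm5 by 0.49. DESeq2 called 4 of the 11, and 0 of the 11 were called in either of the other fits.

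Of 9 genes that supply NADPH 3 rose, where 18.4% of coding genes did. Idh1, the cytosolic NADP-dependent isocitrate dehydrogenase, held 80.5, 83.25, 76.65, 80.0 and 82.4 CPM in AAV9-LMNA replicates 1 to 5 and 46.6, 45.2 and 54.3 CPM in untreated replicates 6 to 8. The groups were well apart. Its log2 fold change was 0.73 (edgeR adjusted p = 0.00152) and 0.39 once length and GC were corrected for (edgeR adjusted p = 0.044), called in both. Taldo1, transaldolase of the pentose phosphate pathway, rose by 0.63 and was not called after the correction.

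In the protein repair list 4 of 7 rose, where 18.4% of coding genes did. They include 3 methionine sulfoxide reductases, which repair oxidized methionine in proteins, Msra, Msrb1 and Msrb2, while the other on the list, Msrb3, had a log2 fold change of 0.14 and was not called (edgeR adjusted p = 0.45). Msra held 41.3 to 54.6 CPM in AAV9-LMNA libraries and 26.8 to 33.3 CPM in untreated libraries, a log2 fold change of 0.81 (edgeR adjusted p = 0.00323) which was 0.49 once length and GC were corrected for (edgeR adjusted p = 0.0265). The mitochondrial Msrb2 held 53.9 ± 3.32 CPM in AAV9-LMNA hearts (SD, n = 5) and 33.3 ± 4.85 CPM in untreated hearts (SD, n = 3), a log2 fold change of 0.70 (edgeR adjusted p = 0.00381), which was 0.28 and not called after the correction. In the selenium list 1 of 11 was called, against 18.4% of coding genes called higher. It was Sephs2, which makes the selenium donor for selenoproteins and is a selenoprotein itself. Its log2 fold change was 0.61 (edgeR adjusted p = 0.00689). After the correction 0.25 remained, which was not called (edgeR adjusted p = 0.231).

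Of 10 regulators of NRF2 edgeR called 0, where 18.4% of coding genes were called higher. Limma-voom called 0 and DESeq2 1, while 2 had an unadjusted p under 0.05 in edgeR, Keap1 and Nfe2l1. Keap1, the adaptor that marks NRF2 for degradation, had a log2 fold change of 0.28 (edgeR adjusted p = 0.0548; DESeq2 adjusted p = 0.0216), and 0.079 with Ensembl features alone. In that fit Bach1, a repressor of NRF2 targets, was called lower (-0.35, edgeR adjusted p = 0.0491), named after its value was seen. In heme breakdown and iron storage 1 of 8 was called, against 18.4% of coding genes called higher. It was Blvra, biliverdin reductase A, which acts after heme oxygenase, with a log2 fold change of 0.63 (edgeR adjusted p = 0.0221). It was not called after the correction (0.28). Among genes whose products form superoxide or peroxide Maoa, a monoamine oxidase of the outer mitochondrial membrane, rose by 0.62 on the log2 scale. It was not called in either of the other fits.

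**Figure D5:**
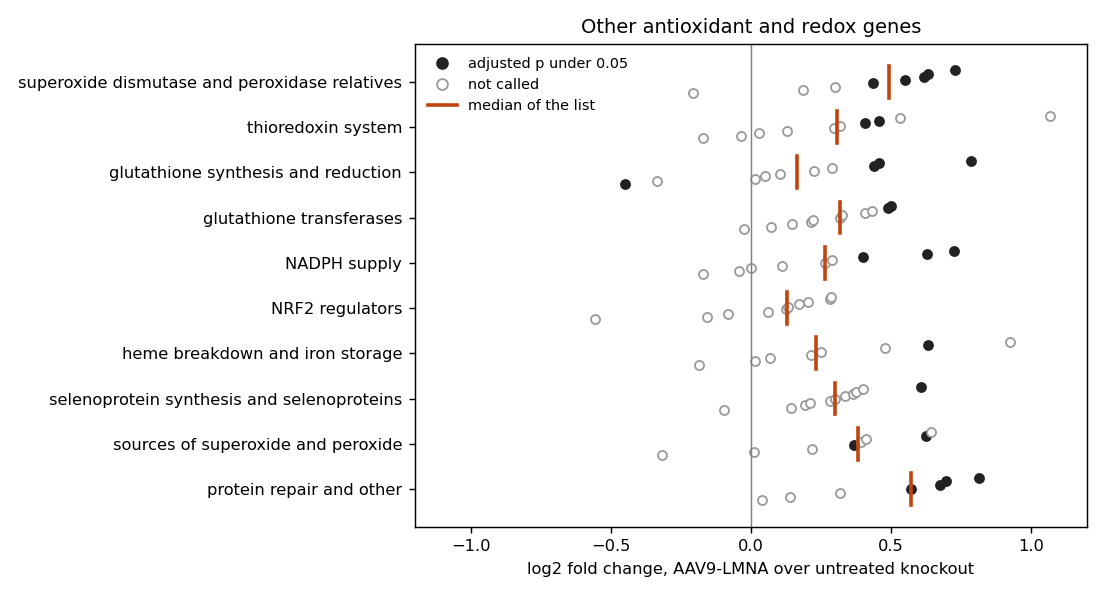
Log2 fold change of AAV9-LMNA over untreated knockout for 92 tested genes of 10 antioxidant and redox lists, filled where the adjusted p was under 0.05, with the median of each list as a bar. Protein repair has the highest median (0.57) and the regulators of NRF2 the lowest (0.13), and Gclc is the filled dot left of 0.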

How the data were processed

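RNA of 8 heart libraries was prepared with Illumina TruSeq kits, per the labels' protocols. The authors deposited raw counts per feature for each library, counted without strand per the file names, over Ensembl genes and NONCODE noncoding genes. TopHat2, HTSeq, limma, edgeR and the builds GRCm38 and mm10 are named in the submitters' processing notes, without versions. Summary lines (no feature, ambiguous and the like) were left out of library sizes. Symbols and coordinates came from GENCODE M21, and promoters from RefSeq.

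Counts were scaled by TMM over all features, filtered with filterByExpr and tested with edgeR's quasi-likelihood test (edgeR 4.0.16, R 4.3.3), with Benjamini-Hochberg adjustment over all 26717 features tested. Libraries held 21439956 to 26492443 counts, and limits from a count of 0 cover counting error only. Alternatives were DESeq2 1.42.0, limma-voom (limma 3.58.1), DESeq2's size factors in edgeR, other filters, Ensembl features alone, a per-library loess fit on length and GC content of transcripts, and leaving out libraries; the correction with coding transcript length was chosen after seeing the data. Calculations were tested on simulated counts, with the spread of each feature set by the trend over all features. Of 67 features changed 1.5-fold there 6 were called (8.96%), and of 67 changed 2-fold 37 were (55.2%). In the simulation 26517 of 26717 features were left unchanged, while 25.7% of all features were called in the data. The share recovered in the data may therefore be another. A gene that was not called may still differ by such a fold.

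The 10 genes and the lists were chosen with earlier results of these data known. Genes named from each wider list were up to 2 called in each direction with the smallest p and a mean log2 CPM of at least 1, or the 1 with the smallest p where none was called. The result for 1 gene that this rule named is not reported here.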

Additional observations from a re-analysis of the deposited data

Results flagged for a closer look

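Among 27 genes examined for a library far from the others of the AAV9-LMNA group, 3 had one, and chance gives about 1 in 20 groups. AAV9-LMNA replicate 1 was the library in 2 of them. It was lowest for Txn2, at 128.1 CPM, against 149 to 156 CPM in the other AAV9-LMNA libraries, and without it Txn2 had a log2 fold change of 0.39 (edgeR adjusted p = 0.0161). It was also lowest for Msra, at 41.26 CPM. AAV9-LMNA replicate 4 was highest for Prdx6, at 177.9 CPM. The group of 3 untreated libraries was not examined in this way.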

How the results depend on the processing

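No paired analysis was possible because the groups share no replicate numbers. Over all features, 2843 were called higher and 4015 lower. The counts were 660 and 1307 with Ensembl features alone, 344 and 818 after the length and GC correction, 334 and 792 with coding transcript length, 1139 and 1004 against untreated replicate 7 alone, and 1528 to 4773 higher and 2207 to 5260 lower without 1 library. Of the 10 genes 5 were called higher, and in the same order of alternatives 2, 0, 0, 3 and 4 to 8. The count called lower was 0, and 1 against untreated replicate 7 alone. Of the wider lists 23 were called higher, then 8, 2, 2, 9 and 14 to 37, and 1 lower, then 2, 2, 2, 4 and 0 to 2, and 2 without the filter.

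With Ensembl features alone the log2 fold changes that lost their call or turned were 0.24 for Sod2, 0.32 for Prdx3, 0.15 for Txn2 and -0.13 for Hmox1. After the length and GC correction they were 0.37 for Sod2, 0.35 for Gpx4, 0.14 for Prdx3, 0.15 for Prdx5, -0.015 for Txn2, -0.0023 for Gpx1, -0.00095 for Nqo1 and -0.31 for Hmox1. With coding transcript length they were 0.38 for Sod2, 0.34 for Gpx4, 0.16 for Prdx3, 0.10 for Prdx5, -0.0013 for Txn2, -0.0024 for Gpx1 and -0.31 for Hmox1. Against untreated replicate 7 alone they were 0.30 for Prdx3, 0.28 for Txn2 and -0.91 for Hmox1. Without the filter Gpx1 (0.45) and Nqo1 (0.44) became called, and with at least 1 CPM in 3 libraries Hmox1 was -0.018. The cause was not tested.

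Without 1 library the log2 fold changes ran from 0.42 to 0.53 for Sod2, 0.29 to 0.85 for Cat, 0.24 to 0.65 for Gpx1, 0.70 to 0.93 for Gpx4, 0.45 to 0.65 for Prdx3, 0.50 to 0.57 for Prdx5, 0.32 to 0.40 for Txn2, 0.13 to 0.62 for Nqo1 and -0.30 to 0.94 for Hmox1. Cat, Gpx1 and Hmox1 became called without untreated replicate 7. Hmox1 was -0.30 without untreated replicate 6, -0.24 without replicate 8 and -0.032 without AAV9-LMNA replicate 2. Over all alternatives, 118 values of the 9 genes kept direction and side of the threshold, 17 lost the call, 5 gained it and 13 turned. For named genes of the wider lists 218 kept both, 69 lost the call and 2 gained it. With 3 untreated libraries, 1 library decided several values.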

Other observations

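AAV9-LMNA replicate 1 also stood at one end of its group for genes outside the naming rule, which were picked after their values were seen. Txnip, an inhibitor of thioredoxin, held 977 CPM in that library, 419 to 514 CPM in the other AAV9-LMNA libraries and 172 to 450 CPM in untreated libraries. Tfrc, the transferrin receptor that brings iron into cells, held 207 CPM in that library, 467 to 712 CPM in the other AAV9-LMNA libraries and 116 to 373 CPM in untreated libraries. Nnt, the transhydrogenase that supplies NADPH in the mitochondrial matrix, held 1253 CPM in that library, 620 to 909 CPM in the other AAV9-LMNA libraries and 758 to 1177 CPM in untreated libraries.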
